A study of Mus musculus with 12 samples.

Results

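The mRNAs of 9 genes that build very low density lipoprotein (VLDL) in the liver or govern the clearance of its triglyceride from plasma were followed across 4 diet groups of mice. They were *Apob*, *Mttp*, *Tm6sf2*, *Apoe*, *Apoc2*, *Angptl4*, *Angptl8*, *Lipc* and *Pltp*, taken by symbol from the 54532 genes listed. Livers came from 12 male C57BL/6J mice, 3 in each group, whose diets began at 5 weeks of age and lasted 26 weeks. ND-fed mice received a normal diet, and control mice received a high-fat diet with no supplement. HYA-treated mice received the same high-fat diet with 1% 10-hydroxy-*cis*-12-octadecenoic acid (HYA), a hydroxy fatty acid made from linoleic acid by gut lactic acid bacteria. LA-treated mice received it with 1% linoleic acid (LA), the parent fatty acid. Control, HYA-treated and LA-treated mice thus share the high-fat diet, and no mouse carried a genetic change.

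VLDL is the particle in which hepatocytes export triglyceride. Apolipoprotein B is its structural protein, and microsomal triglyceride transfer protein loads lipid onto it in the endoplasmic reticulum. In the circulation, lipoprotein lipase hydrolyses the triglyceride on capillary walls, with apolipoprotein C-II as its cofactor and angiopoietin-like proteins as its inhibitors. The remnants are processed by hepatic lipase and phospholipid transfer protein and are taken up by the liver through apolipoprotein E.

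Levels are given as FPKM, that is, fragments per kilobase of gene length after scaling to the size of the library. Between 17169064 and 25220880 fragments per mouse were assigned to genes, with a median of 19610557. The 9 genes differed widely in level. *Apoe* had a mean of 9730 FPKM over the 12 mice and ranked 3 among the 11083 genes tested, which were those with a mean of at least 1 FPKM, and all 9 genes passed this filter. *Apob* had a mean of 631.7 FPKM. *Angptl8*, *Mttp*, *Lipc* and *Pltp* lay between 59.1 and 72.4 FPKM, *Angptl4* and *Tm6sf2* at 21.0 and 12.8 FPKM, and *Apoc2* at 3.55 FPKM. Because whole liver was sequenced, fewer cells of a type and less RNA per cell cannot be told apart.

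In control mice compared with ND-fed mice, *Pltp* rose and *Lipc* and *Apob* fell. A gene was called when its Benjamini-Hochberg adjusted p-value from limma on log2(FPKM + 1) was under 0.05 over all tested genes. Thus 3 of 9 genes were called, whereas 35.3% of all tested genes were called in this comparison (16.2% higher and 19.1% lower), so the share in these genes was near the background. *Pltp* alone also exceeded an absolute log2 fold change of 1, which 3.88% of all tested genes did with a call. Compared with control mice, HYA-treated mice had 1 called gene, *Lipc*, which rose, against 2.8% of all tested genes (1.57% higher and 1.23% lower). That share depended on single mice, from 0.0% without HYA-treated mouse 2 to 5.89% without control mouse 2, and was 0.0% when only these 2 groups were fitted. It did not exceed a fold change of 1 on the log2 scale, as 0.307% of all tested genes did. LA-treated mice had no called gene among the 9 and 0.0% among all tested genes. Between LA-treated and control mice, 294 of the 11083 tested genes had an unadjusted limma p under 0.05, a share that was itself below 0.05. Of these genes, 0 were among the 9.

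**Figure D1:**
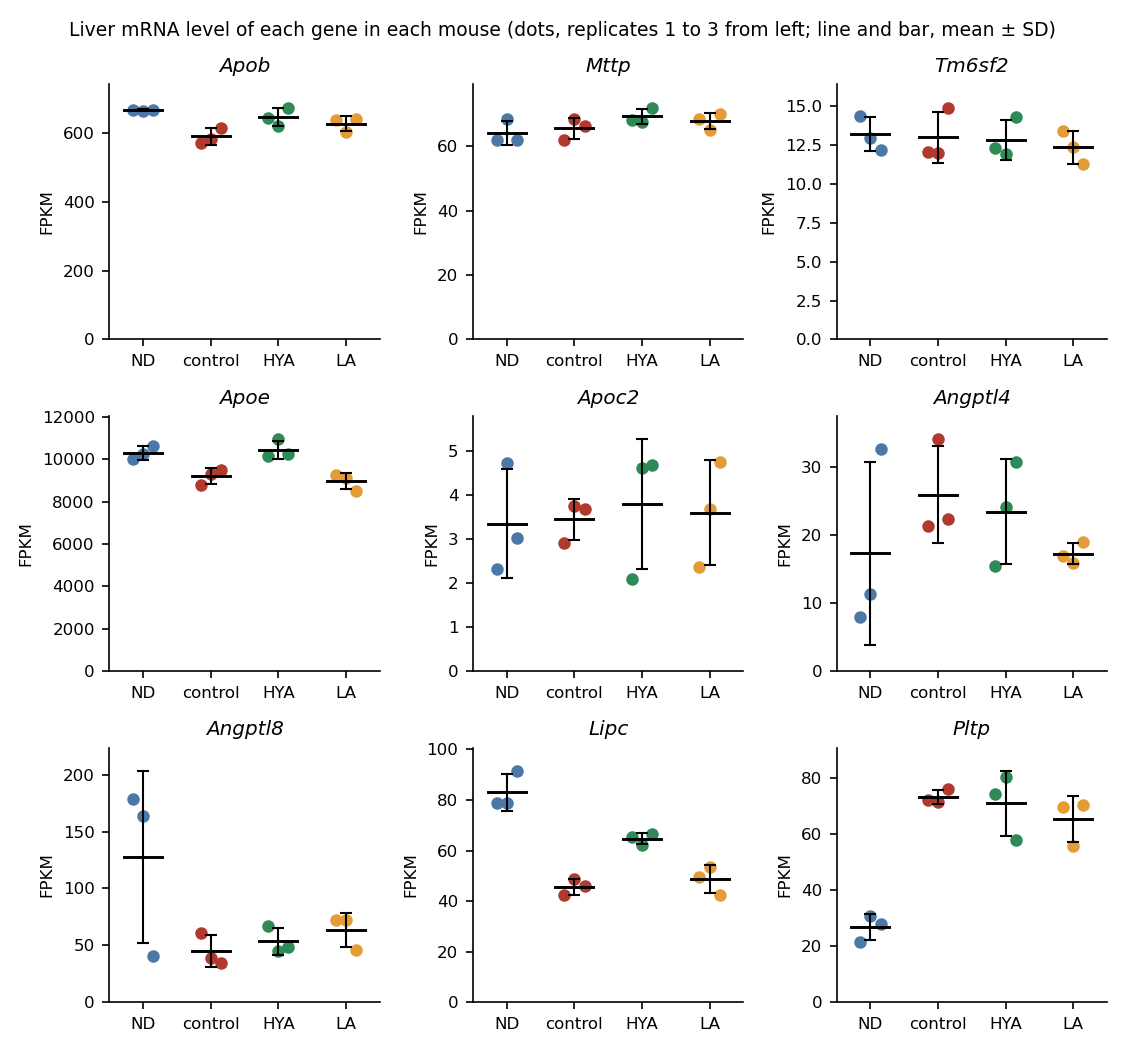
Liver level in FPKM of each of the 9 genes, 1 panel a gene with the vertical axis from 0, for ND-fed, control, HYA-treated and LA-treated mice; each dot is a mouse, the horizontal line the mean and the bar ± SD. *Pltp* is low only in the 3 ND-fed mice (21.7 to 30.8 FPKM), *Lipc* in HYA-treated mice (62.3 to 66.5) lies between ND-fed and control mice, and *Angptl8* is spread most widely in ND-fed mice.

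Among the genes of particle assembly, *Apob* (ENSMUSG00000020609, chromosome 12, positions 7977648 to 8016835, plus strand, build GRCm38) encodes the structural protein of VLDL. It measured 667.3, 664.0 and 667.3 FPKM in ND-fed mice and 569.3, 582.8 and 614.9 FPKM in control mice. All 3 control mice were below all 3 ND-fed mice. The fall was small, by 0.18 on the log2 scale (SE 0.05, limma adjusted p = 0.0246). Scaling every mouse to the same summed level (TPM) gave a difference of 0.06 with an adjusted p of 0.435, so the direction depended on the scaling. TPM also moved the median difference of all genes from -0.04 to 0.18. Relative to that median, *Apob* was lower by a log2 difference of -0.14 with FPKM and of -0.12 with TPM. *Apob* was still called under 5 of the 13 alternatives of processing or of left-out mice.

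In HYA-treated mice *Apob* measured 643.3, 619.0 and 672.6 FPKM, and in LA-treated mice 637.5, 602.2 and 640.2 FPKM. On the FPKM scale the HYA-treated mice were all above the control mice, whereas 1 LA-treated mouse lay within the control range. Neither difference from control mice was called, with log2 fold changes of 0.13 for HYA (SE 0.05, limma adjusted p = 0.219) and 0.09 for LA (SE 0.05, limma adjusted p = 0.999). With TPM these differences were 0.005 for HYA and 0.08 for LA, again uncalled, so the rise with HYA depended on the scaling. Relative to the median of all genes, the difference for HYA was 0.11 with either scaling, and that for LA was 0.09.

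*Mttp* (ENSMUSG00000028158, chromosome 3, positions 138089854 to 138144968, minus strand) encodes the large subunit of the triglyceride transfer protein. It measured 61.9, 68.5 and 61.9 FPKM in ND-fed mice and 62.1, 68.4 and 66.4 FPKM in control mice. The values were 68.2, 67.7 and 72.0 FPKM in HYA-treated mice and 68.4, 65.1 and 70.0 FPKM in LA-treated mice. All 4 groups overlapped within 1.16-fold from the lowest to the highest mouse. The log2 difference of control from ND-fed mice was 0.03, with a 95% interval of -0.10 to 0.16. With TPM the same difference was 0.27 and was called (limma adjusted p = 0.00338), while the median of all genes moved from -0.04 to 0.18. Relative to that median, *Mttp* was higher by 0.08 with FPKM and by 0.09 with TPM. As a quantity that no scaling of a library changes, the ratio of *Mttp* to *Apob* was 0.0928 to 0.103 in ND-fed mice and 0.108 to 0.117 in control mice. The ratio in HYA-treated mice, 0.106 to 0.109, and in LA-treated mice, 0.107 to 0.109, was also above that of every ND-fed mouse.

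*Tm6sf2* (ENSMUSG00000036151, chromosome 8, positions 70072924 to 70080066, plus strand) encodes a membrane protein of the endoplasmic reticulum that is needed to lipidate VLDL fully. It measured 14.4, 13.0 and 12.2 FPKM in ND-fed mice and 12.1, 12.0 and 14.9 FPKM in control mice. The values were 12.3, 11.9 and 14.3 FPKM in HYA-treated mice and 13.4, 12.4 and 11.3 FPKM in LA-treated mice. The 4 groups overlapped throughout. The log2 difference was -0.02 for control against ND-fed mice (95% interval -0.25 to 0.20) and -0.01 for HYA-treated against control mice (95% interval -0.24 to 0.21). On the FPKM scale neither interval thus reached a change of 1.2-fold. With TPM the differences were 0.20 and -0.14, both uncalled (limma adjusted p = 0.171 and 0.497). Relative to the median of all genes they were 0.02 and -0.03 with FPKM, and 0.03 and -0.04 with TPM.

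Of the surface apolipoproteins, *Apoe* (ENSMUSG00000002985, chromosome 7, positions 19696109 to 19699188, minus strand) encodes the ligand by which remnants are bound by hepatic receptors. It measured 9998, 10270 and 10630 FPKM in ND-fed mice, 8783, 9282 and 9515 FPKM in control mice, 10170, 10950 and 10250 FPKM in HYA-treated mice and 9258, 9134 and 8524 FPKM in LA-treated mice. On the FPKM scale the groups formed 2 tiers without overlap, ND-fed and HYA-treated mice above control and LA-treated mice. The tiers were close together: control and ND-fed mice had a log2 difference of -0.16 (SE 0.07, limma adjusted p = 0.0737), and HYA-treated and control mice of 0.19 (SE 0.07, limma adjusted p = 0.158). Neither passed the test. With TPM these differences were 0.07 and 0.06, again uncalled, so the 2 tiers depended on the scaling. Within the upper tier the log2 difference of HYA-treated from ND-fed mice was 0.02 (95% interval -0.12 to 0.17), and within the lower tier that of LA-treated from control mice was -0.04 (95% interval -0.18 to 0.11).

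The only called difference of *Apoe* was that of LA-treated from ND-fed mice, in which 3 of 9 genes were called, against 31.1% of all tested genes. The others were *Lipc* and *Pltp*, of which *Pltp* exceeded the fold threshold too, as 3.49% of all tested genes did. *Apoe* fell by 0.20 on the log2 scale (SE 0.07, limma adjusted p = 0.0396). With TPM it was 0.03 and uncalled, so this direction too depended on the scaling, and leaving out any of the 6 mice ended the call, with adjusted p-values of 0.0533 to 0.141.

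*Apoc2* (ENSMUSG00000002992, chromosome 7, positions 19671579 to 19677941, minus strand) encodes the cofactor of lipoprotein lipase and lies in the same cluster of apolipoprotein genes as *Apoe*. It measured 2.31, 4.72 and 3.01 FPKM in ND-fed mice, 2.92, 3.74 and 3.68 FPKM in control mice, 2.09, 4.61 and 4.68 FPKM in HYA-treated mice and 2.37, 3.69 and 4.75 FPKM in LA-treated mice. The groups overlapped, and in all but the control mice the highest mouse was well above the lowest. Each value rests on only 33 to 94 fragments. Of its 813 exonic bases, 646 (79.46%) are shared with the gene *Gm44805* on the same strand, which was listed at 0 in 11 of 12 mice. How the authors assigned fragments that 2 genes share is not given in the sources used here, so the level of *Apoc2* is uncertain. The log2 difference of control from ND-fed mice was 0.06, with a wide 95% interval of -0.54 to 0.67, and that of HYA-treated from control mice was 0.06 (-0.54 to 0.66).

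The angiopoietin-like inhibitors of lipoprotein lipase varied more between mice than any other of the 9 genes apart from *Pltp*. *Angptl4* (ENSMUSG00000002289, chromosome 17, positions 33773750 to 33781575, minus strand) encodes an inhibitor that is induced by fasting and by fatty acids. It measured 7.95, 11.3 and 32.7 FPKM in ND-fed mice and 21.4, 34.2 and 22.5 FPKM in control mice. ND-fed mouse 3 lay within the control range, and the other 2 ND-fed mice lay below every other mouse in the study. The values were 15.5, 24.2 and 30.8 FPKM in HYA-treated mice and 17.0, 15.9 and 18.9 FPKM in LA-treated mice, and the latter were all below the control mice. The log2 fold change of control against ND-fed mice was 0.77 (SE 0.41, limma adjusted p = 0.173). Without ND-fed mouse 3 it was 1.33 and was called (limma adjusted p = 0.00575), whereas it was 0.38 without ND-fed mouse 1 (adjusted p = 0.504). The log2 difference of LA-treated from control mice was -0.54 (95% interval -1.45 to 0.38, limma adjusted p = 0.999), and that of HYA-treated from control mice was -0.16 (-1.08 to 0.75).

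*Angptl8* (ENSMUSG00000047822, chromosome 9, positions 21835510 to 21837347, plus strand) encodes a lipase inhibitor that is induced by feeding and by insulin. The gene lies within the span of *Dock6* on the opposite strand, with 0 exonic bases in common. It measured 178.8, 163.5 and 40.5 FPKM in ND-fed mice and 60.86, 38.96 and 34.71 FPKM in control mice. The values were 66.7, 44.8 and 49.1 FPKM in HYA-treated mice and 72.0, 72.3 and 45.9 FPKM in LA-treated mice. ND-fed mice 1 and 2 stood above all other mice, whereas ND-fed mouse 3 lay within the range of the control mice.

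The log2 difference of *Angptl8* in control from ND-fed mice was -1.27 (SE 0.47, limma adjusted p = 0.0593), which was not called. Without ND-fed mouse 3 it was -1.95 and was called (limma adjusted p = 0.0007), whereas it was -0.89 without ND-fed mouse 1 (adjusted p = 0.196) and -0.96 without ND-fed mouse 2 (adjusted p = 0.197). It was also called when voom was applied to the fragments recovered from the FPKM values (-1.28, adjusted p = 0.0473). The differences from ND-fed mice were -0.995 for HYA (limma adjusted p = 0.175) and -0.76 for LA (limma adjusted p = 0.252), and without ND-fed mouse 3 they were called at -1.68 and -1.45. Each was called under only that 1 of 13 alternatives. The smallest alternative differences were -0.62 for HYA and -0.39 for LA, and the limma adjusted p reached 0.438 and 0.597. Against control mice the log2 difference was 0.27 for HYA (95% interval -0.78 to 1.32) and 0.50 for LA (-0.54 to 1.55).

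ND-fed mouse 3 was therefore apart in both inhibitors, high in *Angptl4* and low in *Angptl8*. Over all tested genes this mouse was at least 2-fold above both other ND-fed mice in 19 genes and at least 2-fold below them in 22 genes, whereas the other 11 mice were so in 13 to 44 and 10 to 44 genes. These counts were within the range of the other mice. In 4 of 4 groups the mouse with the highest *Angptl8* had the lowest *Angptl4*. For LA-treated mice this rested on 72.27 against 72.02 FPKM of *Angptl8*. The converse failed in control mice, where mouse 3 was lowest in *Angptl8* and mouse 2 highest in *Angptl4*. It also failed in HYA-treated mice, where these were mice 2 and 3. The ratio of *Angptl8* to *Angptl4* was 22.5, 14.5 and 1.24 in ND-fed mice, 1.14 to 2.85 in control mice, 1.59 to 4.31 in HYA-treated mice and 2.42 to 4.54 in LA-treated mice.

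**Figure D2:**
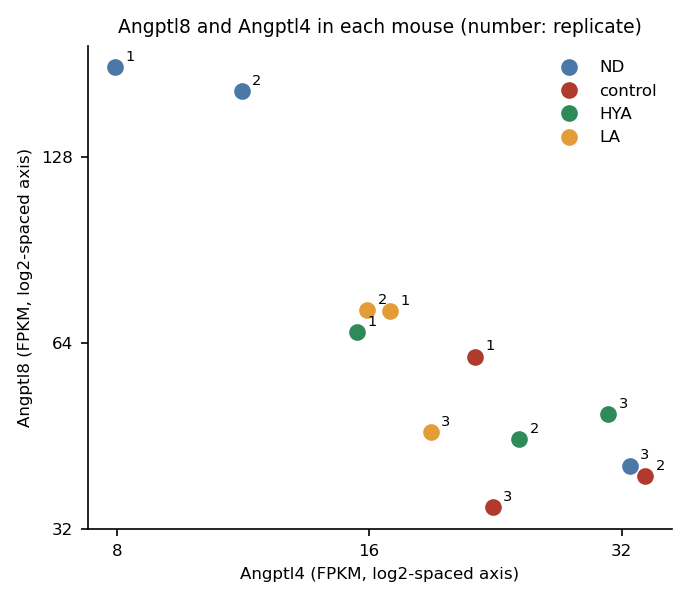
*Angptl8* against *Angptl4* in FPKM on log2-spaced axes, 1 dot for each of the 12 mice, coloured by group and numbered by replicate. ND-fed mice 1 and 2 are at the upper left (*Angptl8* of 178.8 and 163.5 FPKM), and ND-fed mouse 3 is at the lower right (40.5 FPKM) beside control mouse 2.

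*Lipc* (ENSMUSG00000032207, chromosome 9, positions 70798128 to 70952226, minus strand) encodes hepatic lipase, which hydrolyses triglyceride and phospholipid of remnants and of high density lipoprotein. *Pltp* (ENSMUSG00000017754, chromosome 2, positions 164839518 to 164857711, minus strand) encodes phospholipid transfer protein, which moves the surface lipid released during lipolysis to high density lipoprotein. These were the 2 genes called most firmly, and the 250 bases before their RefSeq start sites on GRCm38.p6 are shown for that reason, 5′ to 3′ on the minus strand, with matches to 5 short promoter motifs in capitals. *Lipc* has 2 start sites in RefSeq, and 7 of the 9 genes had an entry.

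Lipc, first start, chr9:70952222-70952471: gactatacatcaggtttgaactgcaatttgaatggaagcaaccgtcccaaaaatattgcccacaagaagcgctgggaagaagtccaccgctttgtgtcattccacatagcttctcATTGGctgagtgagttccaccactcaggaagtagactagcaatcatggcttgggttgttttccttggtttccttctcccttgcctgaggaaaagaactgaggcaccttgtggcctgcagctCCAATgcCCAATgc
Lipc, second start, chr9:70934809-70935058: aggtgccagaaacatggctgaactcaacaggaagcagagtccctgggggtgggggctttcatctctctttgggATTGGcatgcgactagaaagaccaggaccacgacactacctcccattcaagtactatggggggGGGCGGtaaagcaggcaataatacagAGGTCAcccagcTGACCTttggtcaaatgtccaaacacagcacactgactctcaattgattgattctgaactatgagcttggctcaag
Pltp, chr2:164857709-164857958: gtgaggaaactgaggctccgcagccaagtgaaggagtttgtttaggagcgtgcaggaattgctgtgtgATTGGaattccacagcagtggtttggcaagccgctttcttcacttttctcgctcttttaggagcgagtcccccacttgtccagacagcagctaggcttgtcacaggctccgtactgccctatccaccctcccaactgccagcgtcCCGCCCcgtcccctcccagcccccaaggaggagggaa

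The motifs were searched on both strands, and no matches in these windows overlapped. They were the GC box (GGGCGG, in 32.7% of 32851 RefSeq windows of this length), the E box (CACGTG, 6.02%), the core element of nuclear receptors (AGGTCA, 14.0%), the CCAAT box (ATTGG, 33.8%) and the TATA box (TATAAA, 12.4%). The first *Lipc* window holds 3 CCAAT boxes, with first bases at -135, -14 and -7 from the start. The second holds AGGTCA at -88 and its reverse complement TGACCT at -76, beside a GC box at -114 and a CCAAT box at -177. The *Pltp* window holds a GC box at -37 and a CCAAT box at -182. These matches are a description of the letters only, and binding was not measured.

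*Lipc* separated the groups most clearly. It measured 78.7, 78.7 and 91.6 FPKM in ND-fed mice and 42.5, 48.8 and 46.0 FPKM in control mice. The values were 65.3, 62.3 and 66.5 FPKM in HYA-treated mice and 49.7, 53.7 and 42.6 FPKM in LA-treated mice. The order of the means was thus ND (83.0 ± 7.45 FPKM, SD, n = 3), HYA (64.7 ± 2.17), LA (48.7 ± 5.59) and control (45.8 ± 3.16), and the ranges of neighbours in this order were apart except those of LA-treated and control mice.

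*Lipc* fell in control compared with ND-fed mice by 0.84 on the log2 scale (SE 0.09, limma adjusted p = 7.05e-05), which left 0.551 of the ND level, and this was called under all 13 alternatives. It rose in HYA-treated compared with control mice by 0.49 (SE 0.09, 95% interval 0.29 to 0.69, limma adjusted p = 0.0292), to 1.41 times the control mean. The size of this rise was 0.37 to 0.54 under every alternative, but its call was narrow. The adjusted p was 0.0553 with no filter on low values, 0.113 when only these 2 groups were fitted, and 0.064 to 0.114 without HYA-treated mouse 1, 2 or 3 or control mouse 1 or 3.

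For LA-treated against control mice the log2 difference of *Lipc* was 0.08 (95% interval -0.12 to 0.28, limma adjusted p = 0.999). HYA and LA were given at the same dose, and between them 0 of the 9 genes were called, against 0.487% of all tested genes. Of the 9 genes, 2 (*Lipc* and *Apoe*) had an unadjusted limma p under 0.05, as had 1908 of all 11083 tested genes. *Lipc* was higher with HYA in 3 of 3 mice, with a log2 difference of 0.41 (95% interval 0.21 to 0.61, limma adjusted p = 0.067), and voom on recovered fragments called it at 0.42 (adjusted p = 0.0418). *Apoe* was likewise higher with HYA in 3 of 3 mice, by a log2 difference of 0.22 (95% interval 0.08 to 0.37, limma adjusted p = 0.121). The 2 fatty acids differ by a hydroxyl group and a double bond. By the test used, HYA-treated and LA-treated mice were not shown to differ in any of the 9 genes. The 2 intervals above leave out 0 on the FPKM scale. With TPM the differences were 0.30 for *Lipc* and 0.10 for *Apoe*, both uncalled (limma adjusted p = 0.0854 and 0.296).

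HYA-treated mice did not reach the *Lipc* level of ND-fed mice. In that comparison 2 of 9 genes were called, *Lipc* and *Pltp*, against 16.6% of all tested genes, and *Pltp* exceeded the fold threshold too, as 1.89% of all tested genes did. *Lipc* was lower than in ND-fed mice by a log2 difference of -0.35 (SE 0.09, limma adjusted p = 0.0235), a call that was lost with TPM (-0.24, adjusted p = 0.0577), with no filter on low values (adjusted p = 0.0508) and without ND-fed mouse 3 (-0.28, adjusted p = 0.0786) or HYA-treated mouse 1 or 2. In LA-treated mice it fell by 0.76 (SE 0.09, limma adjusted p = 0.00015). These comparisons share their ND-fed and control mice and are not independent of each other. The ratio of *Lipc* to *Mttp*, which no scaling of a library changes, was 1.15 to 1.48 in ND-fed, 0.685 to 0.714 in control, 0.921 to 0.958 in HYA-treated and 0.609 to 0.824 in LA-treated mice, with the same gaps between groups as the levels.

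*Pltp* set the 3 ND-fed mice apart from the 9 mice on a high-fat diet. It measured 21.7, 30.8 and 28.1 FPKM in ND-fed mice and 72.2, 71.3 and 76.2 FPKM in control mice. The values were 74.3, 80.5 and 57.9 FPKM in HYA-treated mice and 69.8, 55.8 and 70.4 FPKM in LA-treated mice. Every mouse on a high-fat diet was above every ND-fed mouse.

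*Pltp* rose by 1.43 on the log2 scale in control mice (SE 0.15, limma adjusted p = 4.98e-05), by 1.37 in HYA-treated mice (SE 0.15, limma adjusted p = 0.000153) and by 1.26 in LA-treated mice (SE 0.15, limma adjusted p = 0.000127), each against ND-fed mice. In control mice the mean was 2.73 times that of ND-fed mice. All 3 were called under each of the 13 alternatives. Against control mice the log2 difference was -0.06 with HYA (95% interval -0.38 to 0.26) and -0.17 with LA (-0.49 to 0.15), and the 3 LA-treated mice were all slightly below the control mice. Of the 2562 exonic bases of *Pltp*, 495 (19.32%) are shared with *Ctsa* on the opposite strand, which had a mean of 29.7 FPKM. Whether counting used the strand is not given in the sources used here, so fragments of the 2 genes cannot be told apart there.

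**Figure D3:**
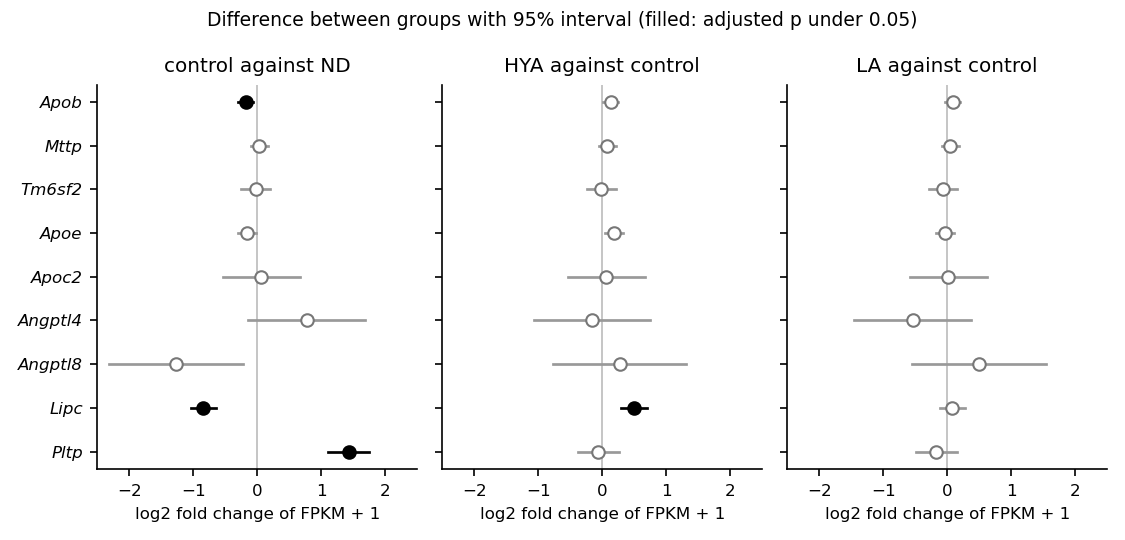
Log2 fold change of FPKM + 1 (dot) and its 95% interval (line) of the 9 genes in control against ND-fed mice, HYA-treated against control mice and LA-treated against control mice; filled dots were called at an adjusted p under 0.05. *Pltp* (1.43) and *Lipc* (-0.84) lie farthest from 0 among the called genes of the first panel, *Lipc* (0.49) is filled in the second, and the third has no filled dot.

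Ranges of 3 mice against 3 were compared on the FPKM scale only. The ranges did not overlap for 4 of the 9 genes in control against ND-fed mice, against 45.6% of all tested genes. They did not overlap for 3 genes in HYA-treated against control mice (*Apob*, *Apoe* and *Lipc*, each higher with HYA), against 21.6%, and for 2 genes in LA-treated against control mice (*Angptl4* and *Pltp*, both lower), against 7.55%. The counts were 2 for HYA-treated against LA-treated mice, 2 for HYA-treated against ND-fed mice and 4 for LA-treated against ND-fed mice, against 25.2%, 35.9% and 47.0%. The median log2 fold change of the 9 genes was -0.02 in control against ND-fed mice, beside -0.04 over all tested genes, and 0.08 in HYA-treated against control mice, beside 0.02.

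The genes whose pattern over the 12 mice was most like that of each variable gene were found by the root mean square difference of log2(FPKM + 1) after centring. *Lipc* was followed most closely by *Pigr*, *Slc27a5* and *Cyp4f13*, at 0.0846 to 0.0869, where the SD of *Lipc* itself was 0.367. *Pigr*, which encodes the receptor for polymeric immunoglobulin, had means of 546.0, 276.0, 389.7 and 298.0 FPKM in ND-fed, control, HYA-treated and LA-treated mice, in the same order as *Lipc*. *Pltp* was followed by *Sqle*, *Plin2* and *Acacb* at 0.153 to 0.182, of which *Sqle*, an enzyme of cholesterol synthesis, averaged 3.603 FPKM with the normal diet and 13.1 FPKM in control mice. For *Angptl4* the nearest genes were *Ip6k2*, *Irs2* and *Depp1* (0.255 to 0.325), for *Angptl8* they were *Hdhd3*, *Inhba* and *Foxa3* (0.461 to 0.479), and for *Apoc2* they were *Snrpn*, *Rev1* and *Chrna2* (0.205 to 0.225). The patterns of *Angptl8* and *Apoc2* were thus less closely matched, relative to their SDs of 0.756 and 0.330, than that of *Lipc*.

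Other genes of the pathway were examined as 4 lists, with rises and falls counted on the FPKM scale. With TPM the median difference of all genes in control against ND-fed mice moved from -0.04 to 0.18. Small falls in that comparison may therefore depend on the scaling. Of 29 tested genes of VLDL assembly and transport, 3 rose and 6 fell in control compared with ND-fed mice, so that 31.0% were called, near the 35.3% of all tested genes. *Sort1*, which encodes a sorting receptor for apolipoprotein B, measured 6.49, 5.64 and 6.82 FPKM in ND-fed mice and 2.02, 1.49 and 2.66 FPKM in control mice, and it fell by 1.27 on the log2 scale (SE 0.14, limma adjusted p = 6.45e-05). *Mia3*, which helps load large cargo at exit sites of the endoplasmic reticulum, fell by 0.32, and *Aadac*, a lipid hydrolase of hepatocytes, fell by 0.45. *P4hb*, the subunit that joins *Mttp* in the transfer complex, rose by 0.20 (SE 0.06, limma adjusted p = 0.0371). *Dgat2*, an enzyme of triglyceride synthesis, had a log2 difference of -0.37 (limma adjusted p = 0.0721). In HYA-treated compared with control mice 1 gene of this list was called, *Aadac*, which rose by 0.36 (SE 0.07, limma adjusted p = 0.0357). The median of the list was -0.07 in the first comparison and 0.06 in the second.

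Of 16 tested genes for lipoprotein lipase and its modulators, 4 rose and 5 fell in control mice (56.2% called, beside 35.3% of all tested genes). *Lpl* itself, which encodes the lipase, was low in liver, at 2.96, 2.46 and 2.91 FPKM in ND-fed mice and 5.66, 3.40 and 5.81 FPKM in control mice, and it rose by 0.63 (SE 0.17, limma adjusted p = 0.014). In HYA-treated mice *Lpl* measured 3.71, 2.33 and 2.83 FPKM, with a log2 difference from control mice of -0.58 (SE 0.17, limma adjusted p = 0.0958). *Gpihbp1*, the capillary anchor of the lipase, rose by 0.47. *Apoc1*, an apolipoprotein that slows remnant uptake, fell by 0.51, and *Apoh* fell by 0.47. *Apoc3*, an inhibitor of clearance, had a log2 difference of -0.28 (limma adjusted p = 0.0592). With HYA only *Apoh* of this list was called, rising by 0.38 (SE 0.08, limma adjusted p = 0.0443). The median of the list was -0.14 in control against ND-fed mice and 0.11 in HYA-treated against control mice.

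Of 17 tested genes of remnant uptake, 6 rose and 5 fell in control mice (64.7% called, beside 35.3% of all tested genes). *Cd36*, a fatty acid and lipoprotein scavenger receptor, measured 29.4, 27.2 and 23.5 FPKM in ND-fed mice and 90.5, 83.3 and 91.1 FPKM in control mice, a rise of 1.69 (SE 0.09, limma adjusted p = 6.32e-07). *Sulf2*, which removes sulfate from heparan sulfate chains, rose by 1.13 (SE 0.10, limma adjusted p = 2.68e-05). *Lrp1*, a remnant receptor, fell by 0.59 (SE 0.06, limma adjusted p = 5.65e-05), and *Ndst1*, an enzyme of heparan sulfate sulfation, fell by 0.35. In HYA-treated compared with control mice only *Lrp1* was called, with a rise of 0.30 (SE 0.06, limma adjusted p = 0.0355), and *Ndst1* had a log2 difference of 0.22 (limma adjusted p = 0.0743). The median of the list was 0.03 in the first comparison and -0.03 in the second.

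Of 24 tested transcriptional and sterol regulators, 0 rose and 6 fell in control mice (25.0% called, below the 35.3% of all tested genes, of which 19.1% fell). *Mlxipl*, which encodes the carbohydrate response factor ChREBP, measured 75.8, 87.2 and 87.0 FPKM in ND-fed mice and 37.6, 44.0 and 46.2 FPKM in control mice, and it fell by 0.95 (SE 0.09, limma adjusted p = 3.27e-05). Of the 6, *Nr1h3*, named after its values were seen, changed direction with TPM (from -0.17 to 0.06). *Hnf4a*, a hepatocyte transcription factor, fell by 0.54 and *Scap*, the escort of sterol response factors, by 0.46. *Mlxipl* was also the 1 gene of this list called in HYA-treated against control mice, at 61.4, 58.1 and 53.3 FPKM, a rise of 0.43 (SE 0.09, limma adjusted p = 0.039). *Insig1*, which retains *Scap* protein in the endoplasmic reticulum, had a log2 difference of 0.34 (limma adjusted p = 0.0945). The median of the list was -0.02 in control against ND-fed mice and 0.11 in HYA-treated against control mice. The calls of *Aadac*, *Apoh*, *Lrp1* and *Mlxipl* in HYA-treated against control mice were narrow too. Each held under only 5 to 6 of 13 alternatives, and each was lost with no filter, with only these 2 groups fitted and without HYA-treated mouse 1, 2 or 3 or control mouse 1 or 3, with adjusted p-values of up to 0.178. In LA-treated against control mice no gene of the 4 lists was called.

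**Figure D4:**
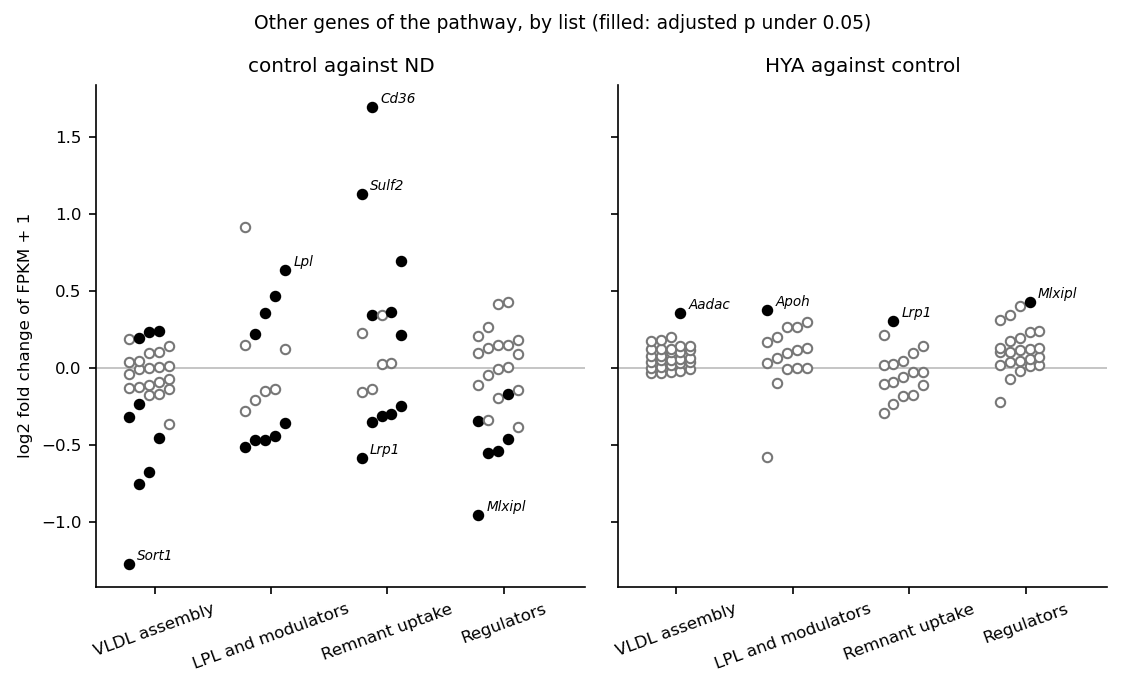
Log2 fold change of FPKM + 1 of each tested gene of the 4 pathway lists (the 9 genes themselves left out) in control against ND-fed mice and in HYA-treated against control mice; each dot is a gene, and filled dots were called at an adjusted p under 0.05. *Cd36* (1.69) and *Sort1* (-1.27) are the extremes on the left, and on the right 1 gene of each list is filled, *Aadac*, *Apoh*, *Lrp1* and *Mlxipl*, all above 0.

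Markers of liver cell types moved with some of these results. The summed level of 8 hepatocyte markers was 49310 to 51220 FPKM with the normal diet, 34930 to 39440 FPKM in control, 43060 to 45700 FPKM in HYA-treated and 37600 to 39100 FPKM in LA-treated mice, with 0 of 8 at 0 in any group. This placed the HYA-treated mice between the ND-fed and the control mice, as *Lipc* did. The sum came mostly from *Alb* (29220 FPKM in ND-fed mice). For *Ttr*, *Cyp2e1*, *Tdo2* and *Ahsg* too, the mean of HYA-treated mice lay between those of ND-fed and control mice. In HYA-treated mice *Apoa2* (8828 FPKM) was above ND-fed mice (8378). *Tat* was near control mice (390.4 and 389.1), and *Hpx* was lower than in control mice (2191 and 2694). With HYA against control 1 of the 8 was called, a rise (12.5%, beside 2.8% of all tested genes). In control against ND-fed mice 1 of the 8 rose and 5 fell (75.0% called, beside 35.3% of all tested genes), with a median log2 fold change of -0.56, beside -0.04 over all tested genes. Their part in the result for *Lipc* was not tested.

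For *Pltp* and *Lpl*, which other liver cells also express, the sums of 12 macrophage markers were 224.9 to 343.1 FPKM with the normal diet, 339.2 to 356.2 FPKM in control, 244.0 to 341.5 FPKM in HYA-treated and 339.5 to 357.6 FPKM in LA-treated mice, with 0 of 12 at 0 in all mice of a group. Its members moved in opposite directions in control against ND-fed mice, where 5 of 11 tested rose and 2 fell: *Cd68* averaged 7.81 FPKM with the normal diet and 16.6 FPKM in control mice, and *Marco* 23.4 and 5.96 FPKM. The sums of 8 stellate cell markers were 32.8 to 43.4, 64.3 to 82.1, 54.9 to 66.7 and 70.7 to 82.8 FPKM, those of 7 endothelial markers were 59.4 to 74.6, 83.3 to 84.4, 78.7 to 85.3 and 80.4 to 85.8 FPKM, and those of 6 cholangiocyte markers were 19.1 to 27.8, 78.01 to 171.7, 38.6 to 52.5 and 81.4 to 134.6 FPKM, in the same order of groups. No stellate, endothelial or cholangiocyte marker was at 0 in all mice of a group. The cholangiocyte sum came mostly from *Spp1*, which macrophages also express and which averaged 21.0, 117.7, 42.5 and 102.0 FPKM. Of the duct markers, *Epcam* averaged 0.899 and 2.38 FPKM, *Sox9* 1.88 and 1.80 FPKM, and *Krt19* 0.746 and 0.897 FPKM with the normal diet and in control mice. For the stellate and endothelial lists every control mouse had a larger sum than every ND-fed mouse. The part of these cell types in the results for *Pltp* and *Lpl* was not tested.

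Adipocytes also express *Lpl* and *Angptl4*. In these livers 4 of the 5 adipocyte markers (*Adipoq*, *Plin1*, *Lep* and *Retn*) had means under 1 FPKM in every group, and the sum of the 5 was at most 8.75 FPKM. All 6 lymphocyte markers had means under 1 FPKM in ND-fed, control and HYA-treated mice, and 5 of 6 did in LA-treated mice. Enterocytes, the other source of apolipoprotein B particles, were represented by 4 markers, of which 3 had means under 1 FPKM in every group, and their sum of 59.6 to 195.1 FPKM came from *Fabp2*, which averaged 66.1 FPKM with the normal diet and 166.6 FPKM in control mice.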

How the data were processed

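Liver RNA of 12 mice (RNeasy kit, Nextera XT libraries per the labels) was sequenced by the authors from paired ends on the Illumina HiSeq platform. The authors deposited the FPKM of every gene in every mouse in 1 table. Per the submitters' processing notes, fastp, HISAT2 2.0.5 and featureCounts 1.5.0-p3 were used with GRCm38. The annotation release is not given in the sources used here. The methods name TPM, but column sums of 342146 to 429286 differ between mice, which TPM sums do not. FPKM multiplied by gene length gave whole fragments for 100.0% of values (tolerance 0.05 fragments).

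limma 3.58.1 in R 4.3.3 (empirical Bayes with trend, two-sided) was fitted to log2(FPKM + 1) of genes whose mean reached 1 FPKM, with all 12 mice in 1 fit. Benjamini-Hochberg adjustment covered all 11083 genes of each of 6 comparisons, and the threshold was 0.05. Fold changes on this scale understate those of low genes such as *Apoc2*. The mice of a group are separate animals. Low fragment numbers limit mainly *Apoc2* (33 to 94), whose level is uncertain because of the overlap with *Gm44805*. The procedure was tested on simulated data.

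The 9 genes, the lists and the alternatives were chosen with earlier results of these data known. Of each list, the genes named are those with the 3 lowest p-values in control against ND and the 2 lowest in HYA against control, plus *Lpl*, *Gpihbp1*, *Apoc3*, *Lrp1*, *Dgat2* and *P4hb*. Some genes that this rule names are not reported here. Likeness was computed for genes with an SD of at least 0.3. The alternatives were median-ratio size factors, TPM, no filter, a pseudocount of 0.1, a replicate block, only the 2 groups compared, voom on recovered fragments (at least 10 on average), an added fold threshold, and leaving out each mouse.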

Additional observations from a re-analysis of the deposited data

How the results depend on the processing

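Of 702 alternative values of the 9 genes, 662 kept their direction and their side of the threshold, or were uncalled in both fits, 27 lost a call, 11 gained one and 2 reversed. The 2 were *Apob* in control against ND-fed mice (0.0588) and *Apoe* in LA-treated against ND-fed mice (0.0314), both with TPM. In each of these comparisons TPM moved the median of all genes from -0.04 to 0.18. Counting values uncalled in both fits as well, 47 of the 702 changed sign. Among them was *Apoe* in control against ND-fed mice with TPM (0.07). With TPM, 85.1% instead of 45.9% of the genes called between control and ND-fed mice were higher in the former, and 17.7% instead of 56.1% of those called between HYA-treated and control mice.

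The number of the 9 genes called in HYA-treated against control mice was 0 with no filter and 0 with only the 2 groups fitted, and 0 to 1 when a mouse was left out. In HYA-treated against ND-fed mice it was 1 with no filter and 1 to 3 when a mouse was left out. In control against ND-fed and LA-treated against ND-fed mice it was 2 to 4 and 2 to 3 when a mouse was left out. It was 1 with voom in HYA-treated against LA-treated mice and 0 in LA-treated against control mice under every alternative. With the added fold threshold the count was 1 (*Pltp*) when each high-fat group was set against ND-fed mice, and 0 when HYA-treated mice were set against control mice. The 2-group fit and the left-out mice use fewer mice, and the unfiltered fit tests more genes. For the other settings the cause was not tested.

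Replicate numbers are shared between groups, but nothing in the labels says that they pair mice. Deviations of same-numbered mice correlated between -0.396 and 0.294 (median 0.008, 18 pairs), and of differently numbered mice between -0.375 and 0.393. With a replicate block the counts were 4 for control against ND-fed, 1 for HYA-treated against control, 0 for LA-treated against control, 0 for HYA-treated against LA-treated, 2 for HYA-treated against ND-fed and 3 for LA-treated against ND-fed mice. The added call was *Angptl8* (-1.27, limma adjusted p = 0.0223). With 3 mice a group, the intervals for *Angptl4*, *Angptl8* and *Apoc2* leave differences of over 1.5-fold undecided against control mice.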
